A study of Mus musculus with 3 samples.

Results

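The cathepsins described here are 10 protease genes, most of them of the lysosome, Ctsa, Ctsb, Ctsc, Ctsd, Ctse, Ctsh, Ctsl, Ctss, Ctsw and Ctsz, taken by symbol from the 27179 genes counted in mouse pro-B cells with and without Pax5. Pax5 is the transcription factor that commits lymphoid precursors to the B lineage. RNA was sequenced from 2 Pax5-/- samples, labelled male and prepared independently, and from 1 wild-type sample, labelled female, all C57BL/6. In all of them B220+ bone marrow cells, B220 being a B-lineage form of CD45, were grown on OP9 stromal feeder cells. Both Pax5-/- samples were depleted of IgM+ cells with magnetic beads on day 7, a step and a day that the wild-type protocol does not mention. Genotype, sex and that protocol difference cannot be told apart in this design. The labels do not describe the Pax5 allele, and Pax5 itself had 417 and 551 counts against 1601 in the wild type, which include any exons outside a deleted part.

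Cathepsins are made as inactive proenzymes, carried to acidic endosomes and lysosomes on mannose 6-phosphate receptors, and activated there by removal of the propeptide. Most are cysteine proteases of the papain family, whereas cathepsins D and E are aspartic proteases and cathepsin A is a serine carboxypeptidase. In B-lineage and other antigen-presenting cells they break down endocytosed protein and, for cathepsin S in particular, trim the invariant chain from MHC class II. Cathepsin C activates the granule serine proteases of cytotoxic and myeloid cells.

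Libraries of Pax5-/- samples 1 and 2 and the wild type held 6487846, 6697879 and 6530057 counts. All 12 pro-B markers had counts in every library. Of 11783 genes tested across the whole table, 2130, or 18.1%, were called different, 9.53% higher and 8.55% lower in Pax5-/-. These percentages are the background for the counts that follow.

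All 10 cathepsin genes passed the filter on low counts, and 6 of them were called. Ctsh passed through the wild type only and Ctsw through Pax5-/- only (the other group reached the count minimum in no sample). Such genes had to differ in that direction, though not by enough to be called. Of all genes that passed through the wild type only 49.6% were called, and through Pax5-/- only 38.3%. Of the other 8 cathepsin genes, 4 were called, against 14.9% of all genes that passed in both groups. Ctsd, Ctsl and Ctsw rose in Pax5-/- cells, Ctsb, Ctsz and Ctsh fell, and Ctsa, Ctsc, Ctse and Ctss were not called (edgeR quasi-likelihood test, Benjamini-Hochberg adjusted over all genes). The median log2 fold change (log2FC, Pax5-/- over wild type) of the 10 was -0.18, against 0.01 over all genes tested, while the median size regardless of direction was 0.97 against 0.41. The wild type lay outside the range of the Pax5-/- samples for 8 of the 10, above it for 4 and below it for 4. The same held for 85.2% of all genes tested. In bulk RNA, fewer cells of a type and less RNA per cell cannot be told apart.

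**Figure D1:**
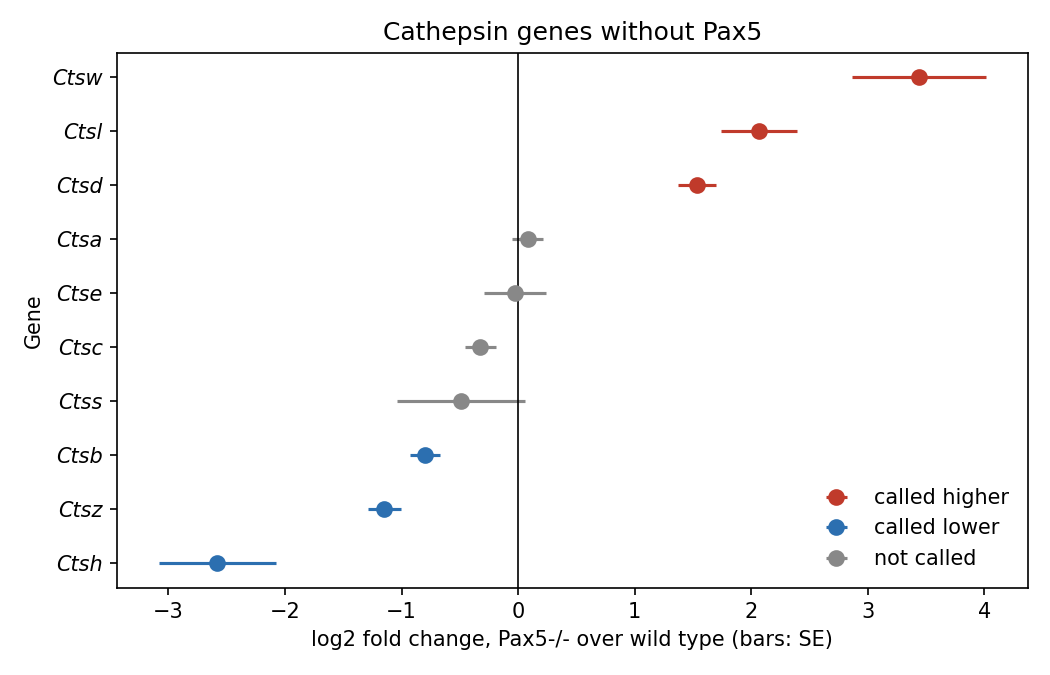
Log2FC of each cathepsin gene, Pax5-/- (2 samples) over wild type (1 sample), on the horizontal axis, with bars for the SE of the fit. Ctsw, Ctsl and Ctsd stand to the right of 0 in red, Ctsb, Ctsz and Ctsh to the left in blue, and the 4 genes not called lie between -0.49 and 0.08.

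Promoter sequence for the genes at the centre of these results is given here, since lysosomal genes are known to be driven through E-boxes by TFEB and TFE3, and interferon-responsive genes through sites for interferon regulatory factors. The windows are the 250 bases before a start in RefSeq's promoter table (build GRCm38.p6, 5′ to 3′ on the gene's strand), and the 3 printed lie wholly before the gene. Capitals mark the E-box CACGTG, which reads the same on both strands, or a repeat of GAAA after a gap of 2 bases, the kind of site bound by interferon regulatory factors, searched on both strands. Ctsd (chr7:142387828-142388077, minus strand) is shown as a gene that rose, Ctsz (chr2:174439040-174439289, minus strand) as one that fell, and Ctss (chr3:95526536-95526785, plus strand) because it differed between the Pax5-/- samples.
Ctsd: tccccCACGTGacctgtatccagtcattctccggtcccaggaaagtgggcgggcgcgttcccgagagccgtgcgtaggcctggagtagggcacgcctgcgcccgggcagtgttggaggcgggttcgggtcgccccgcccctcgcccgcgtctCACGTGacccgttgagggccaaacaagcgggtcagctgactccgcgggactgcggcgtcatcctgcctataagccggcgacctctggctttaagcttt
Ctsz: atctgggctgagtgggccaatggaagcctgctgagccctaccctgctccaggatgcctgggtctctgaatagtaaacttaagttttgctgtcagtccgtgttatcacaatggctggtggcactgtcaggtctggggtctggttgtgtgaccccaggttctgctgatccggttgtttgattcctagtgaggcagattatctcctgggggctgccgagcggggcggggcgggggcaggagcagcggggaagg
Ctss: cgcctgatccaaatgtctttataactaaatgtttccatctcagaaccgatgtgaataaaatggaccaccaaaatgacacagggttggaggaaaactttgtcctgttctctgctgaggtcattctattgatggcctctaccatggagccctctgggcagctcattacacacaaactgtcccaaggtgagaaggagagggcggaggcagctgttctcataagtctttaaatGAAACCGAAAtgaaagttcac

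RefSeq's promoter table had a window for 6 of the 10 genes, and a window wholly before the gene for 4, Ctsa, Ctsd, Ctss and Ctsz. Among these 4 the E-box was found for Ctsd, with copies starting 245 and 98 bases before its start, and the GAAA repeat for Ctss, starting 21 bases before its start. The motifs do not overlap. Ctsz held neither motif, nor did the Ctsa window before the gene. The windows of Ctsl and of a second listed start of Ctsa lie inside the gene, and 61 bases of the Ctsc window do, so these are not read as promoters. Those of Ctsl and of the second start of Ctsa each held 1 E-box. Counted wherever the windows lie, the E-box was found for 3 of the 6 genes, which have 7 windows, and the repeat for 1. Over all 32851 windows of this length, wherever they lie, 6.02% held the E-box and 2.98% the repeat.

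The aspartic proteases were divided. Ctsd (Entrez 13033; chromosome 7, 142375910 to 142387827, mm10) encodes cathepsin D, a major protease of lysosomal protein breakdown. Pax5-/- samples 1 and 2 gave 1705 and 2090 counts and the wild type 632, or 263 and 307 against 98.6 CPM (read counts scaled to library size, with TMM factors). Both Pax5-/- samples were far above the wild type, and the gene rose 2.89-fold (log2FC 1.53, SE 0.16, adjusted p = 0.0112). Ctse (Entrez 13034; chromosome 1, 131638314 to 131675507), whose product cathepsin E sits mainly in endosomes, had 184, 138 and 159 counts. The wild type fell between the Pax5-/- samples, and the log2FC was -0.03 (SE 0.27, adjusted p = 0.948).

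Among cysteine proteases of broad tissue expression, Ctsb and Ctsz fell together and Ctsl rose. Ctsb (Entrez 13030; chromosome 14, 63122462 to 63145923) encodes cathepsin B, which cuts within proteins and also removes dipeptides from their carboxy end. Its counts were 1272 and 1211 in Pax5-/- and 2085 in the wild type, 187 ± 13.0 (SD, n = 2) against 325 CPM, and fell by 0.80 log2 units (SE 0.13, adjusted p = 0.0269). Ctsz (Entrez 64138; chromosome 2, 174427494 to 174439039), the gene of the carboxypeptidase cathepsin Z, had 358, 392 and 801 counts. Its 56.4 ± 1.64 CPM (SD, n = 2) stood against 125 CPM, a 2.21-fold lower level (log2FC -1.15, SE 0.14, adjusted p = 0.0153). For both genes the Pax5-/- samples lay close together and well below the wild type.

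Ctsl (Entrez 13039; chromosome 13, 64361890 to 64370772) encodes cathepsin L, an endopeptidase that in the mouse thymic epithelium processes the invariant chain. Its counts were 87 and 114 in Pax5-/- and 23 in the wild type, 15.1 ± 2.35 (SD, n = 2) against 3.59 CPM. The gene rose 4.19-fold (log2FC 2.07, SE 0.33, adjusted p = 0.0256), from a low level that stayed below those of Ctsb and Ctsz per kilobase in every library.

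Ctsh and Ctsw, both low, moved in opposite directions. Ctsh (Entrez 13036; chromosome 9, 90054267 to 90076095), encoding the aminopeptidase cathepsin H, had 5 and 9 counts without Pax5 and 41 with it. That was 1.05 ± 0.39 (SD, n = 2) against 6.40 CPM, and it fell by 2.58 log2 units (SE 0.50, adjusted p = 0.0399). Ctsw (Entrez 13041; chromosome 19, 5465043 to 5468628), encoding cathepsin W, a protein typical of cytotoxic T and NK cells, had 32 and 38 counts without Pax5 and 3 with it. With so few wild-type counts, the change is given as a ratio of pooled CPM, 11.3 (95% counting interval 3.70 to 55.9; adjusted p = 0.0289 in the edgeR test). The call of Ctsh was lost with DESeq2 and with library size alone, and those of Ctsb, Ctsd, Ctsl and Ctsz were lost when the biological coefficient of variation was set to 0.4. That of Ctsb was also lost in the likelihood ratio test.

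Ctsa and Ctsc were not called. Ctsa (Entrez 19025; chromosome 2, 164832872 to 164841032), the carboxypeptidase that also protects beta-galactosidase and neuraminidase 1 in the lysosome, had 887, 932 and 828 counts, or 137, 137 and 129 CPM. Its log2FC was 0.08 (SE 0.13, adjusted p = 0.690). Its protein partners were not called either, Glb1 at 0.28 (SE 0.15) and Neu1 at 0.01 (SE 0.15). Ctsc (Entrez 13032; chromosome 7, 88278024 to 88315861), the dipeptidyl peptidase that activates granule proteases, had 801, 798 and 966 counts. Both Pax5-/- samples were below the wild type, at a log2FC of -0.32 (SE 0.14, adjusted p = 0.178), which missed the threshold.

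Ctss (Entrez 13040; chromosome 3, 95526786 to 95556405), the invariant chain protease, differed more between the Pax5-/- samples than any other cathepsin here. It had 840 counts in Pax5-/- sample 1, 361 in sample 2 and 822 in the wild type, or 130, 53.0 and 128 CPM. Sample 1 matched the wild type within counting error and sample 2 was the low one. The ratio of sample 1 to sample 2 was 2.44 (95% counting interval 2.16 to 2.77), whereas it ran from 0.584 for Ctsh, with 5 and 9 counts, to 1.40 for Ctse among the other 9 genes. The fitted log2FC was -0.49 (SE 0.55, adjusted p = 0.566), and it was -1.27 without Pax5-/- sample 1 and 0.02 without sample 2. Of the interferon-induced genes among the dendritic cell markers, Irf7, an interferon regulatory factor, stood at 364 and 11.3 against 43.7 CPM in the wild type. Bst2, which encodes tetherin, stood at 787 and 126 against 263 CPM, and neither gene was called. The part of an interferon response in the level of Ctss was not tested.

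Set against each other per kilobase of gene length, the cathepsins had another leading gene in each genotype. In the wild type Ctss (94.6 CPM per kilobase) and Ctsz (89.7) led, and their counting intervals overlapped. Ctsb (68.6), Ctsc (61.0), Ctsd (50.4), Ctsa (35.2), Ctse (11.7), Ctsh (3.94), Ctsl (1.82) and Ctsw (0.380) followed with intervals that did not overlap their neighbours'. In Pax5-/- Ctsd led at 146 ± 15.9 CPM per kilobase (SD, n = 2), above every other member in both samples. Ctss came next at 67.4 ± 40.0, and its range over the pair of samples overlapped those of Ctsc at 48.7 ± 1.83, Ctsz at 40.5 ± 1.18 and Ctsb at 39.4 ± 2.75. The ranges of Ctsz and Ctsb overlapped too. Then came Ctsa at 37.3, though its counting intervals overlapped those of Ctsz and Ctsb in each Pax5-/- sample. Ctse at 11.5 ± 2.71, Ctsl at 7.65 ± 1.19, Ctsw at 4.27 ± 0.37 and Ctsh at 0.645 ± 0.240 followed. Ctsh thus stood above Ctsl and Ctsw in the wild type and below both in Pax5-/-.

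**Figure D2:**
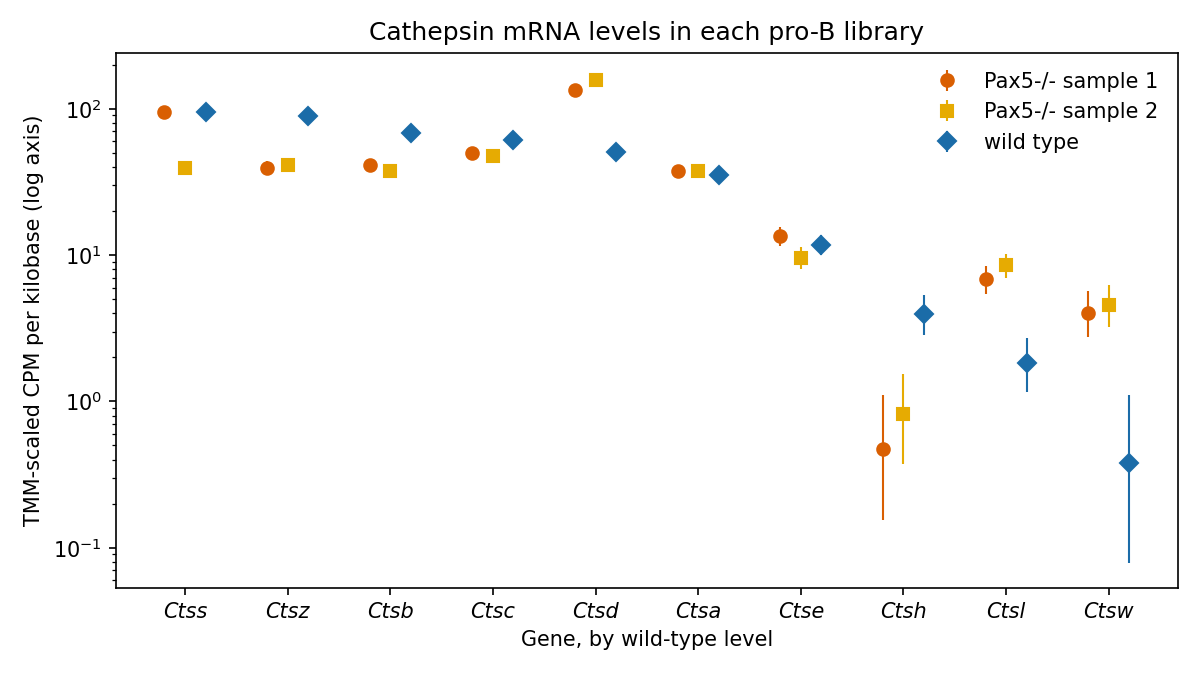
TMM-scaled CPM per kilobase (log axis) of the 10 cathepsin genes in Pax5-/- sample 1 (circles), Pax5-/- sample 2 (squares) and the wild type (diamonds), with 95% counting intervals as bars. Ctsd in Pax5-/- is the highest point at 135 and 157, the wild-type diamonds of Ctsz, Ctsb and Ctsh lie above both Pax5-/- points, and Ctss is split between the Pax5-/- samples.

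The summed level of the 10 genes was 423 and 383 CPM per kilobase in Pax5-/- samples 1 and 2 and 417 in the wild type, so the wild type lay between the Pax5-/- samples, while the make-up of the sum differed. Ctsd held 31.8% and 41.0% of that sum in Pax5-/- and 12.1% in the wild type. Ctsz held 9.37% and 10.8% against 21.5%, and Ctsb 9.78% and 9.79% against 16.4%. The share of Ctss was 22.6% in Pax5-/- sample 1, 10.2% in sample 2 and 22.7% in the wild type.

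**Figure D3:**
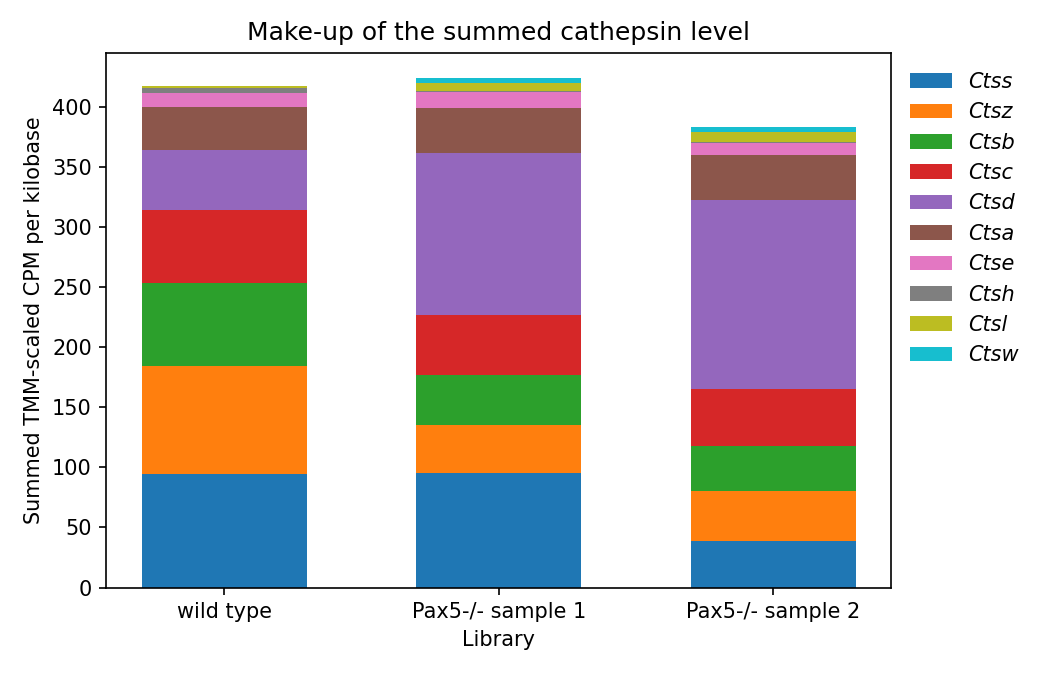
Summed TMM-scaled CPM per kilobase of the 10 cathepsin genes in each library, stacked by gene. The bars reach 417, 423 and 383, and the Ctsd block is the largest in both Pax5-/- bars, whereas Ctss and Ctsz are the largest in the wild type.

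Reads of neighbouring genes could enter these counts where exons overlap in the GENCODE M21 annotation of the same assembly. Ctsb shared 12.8% of its exon bases with Fdft1 on the opposite strand, which was not called (297, 415 and 383 counts; log2FC -0.16). Ctsd shared 34.4% with the gene model Gm49369 on the same strand. Ctsl shared 26.8% with the antisense model Gm47123 and 6.09% with the processed pseudogene Gm49230 on the same strand. None of these models was analysed here. Ctsa overlapped Pltp and Neurl2, with at most 21 counts each, and Ctsz and Ctsw overlapped Nelfcd and Fibp by 10 and 9 bases. The effect of these overlaps on the counts was not tested.

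Of 14 other cathepsin genes, including the related aspartic protease Napsa, only 3 passed the filter. Ctsg, the serine protease cathepsin G of myeloid granules, had 83, 91 and 6 counts and rose 13.7-fold (log2FC 3.78, SE 0.38, adjusted p = 0.0100). Ctsg passed the filter through Pax5-/- only and had to differ in that direction. Ctso had 86, 68 and 134 counts and was not called, with both Pax5-/- samples below the wild type (log2FC -0.85, SE 0.27, adjusted p = 0.104). Napsa, encoding napsin A, had 2115, 2276 and 2519 counts and a level per kilobase of 223 in Pax5-/- (mean of 2) and 266 in the wild type, above each of the 10 cathepsins (log2FC -0.25, adjusted p = 0.186). Napsa shares 18.9% of its exon bases with an antisense gene. The remaining 11 had at most 2 counts in any library, with 9 genes, 8 of them of the placental group, at 0 in all 3 libraries.

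Several genes that hold cathepsins in check changed. Of 12 inhibitor genes, 8 were tested, and 5 rose, 1 fell and 2 were not called, where 18.1% of all genes were called; of the 6 called, Ctla2a, Ctla2b and Serpina3g passed the filter through 1 group only and had to differ. Cst7, encoding cystatin F, an inhibitor of lysosomal cysteine cathepsins in immune cells, rose from 7.64 CPM to 249 ± 4.04 CPM (SD, n = 2), with 1634, 1678 and 49 counts (log2FC 5.02, SE 0.17, adjusted p = 0.00272). Ctla2a, whose product resembles a cathepsin propeptide and inhibits cathepsin L, rose as well, from 4 counts to 178 and 230 (log2FC 5.58, SE 0.38). Its relative Ctla2b had 43, 66 and 2 counts, a ratio of 26.3 (95% counting interval 7.11 to 220), and this call was lost with limma-voom. Reads shared by Ctla2a and Ctla2b, which are close in sequence, are uncertain. Serpina3g, a serpin that inhibits cathepsin B, fell, with 1, 0 and 40 counts and a wild-type level 82.9 times that of Pax5-/- (counting interval at 95% confidence, 14.0 to 3355). Its fitted log2FC of -6.05 moved to -8.37 without Pax5-/- sample 1 and -5.17 without sample 2. Cst3, encoding cystatin C, rose by a log2FC of 0.69 (SE 0.13), though not in the likelihood ratio test, and Cstb, the cytosolic cystatin B, was not called at 0.00 (SE 0.15).

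Of 11 genes for cathepsin maturation and transport, 2 rose, 1 fell and 8 were not called (median log2FC 0.15). That was 27.3% called, against 18.1% of all genes. Lgmn, encoding legumain, which cleaves several cathepsins to their mature chains, had 988, 846 and 296 counts and rose (log2FC 1.58, SE 0.20, adjusted p = 0.0167). Gnptab, of the enzyme that starts the mannose 6-phosphate tag, was called higher at 0.74 (SE 0.16), just inside the threshold and lost with limma-voom and in the likelihood ratio test. Gga2, an adaptor that sorts tagged enzymes out of the Golgi, had 310, 374 and 941 counts and fell by 1.51 log2 units (SE 0.16, adjusted p = 0.0110). The receptors of the tag, M6pr at -0.26 (SE 0.13) and Igf2r at -1.28 (SE 0.42), were not called.

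The share of other lysosomal hydrolase genes called was near that of all genes. Of 35, 6 rose, 2 fell and 27 were not called, 22.9% called against 18.1% of all genes. The 2 that fell, Ppt2 and Hexa, passed the filter through the wild type only. Acp2, lysosomal acid phosphatase, rose from 12 counts to 72 and 68 (log2FC 2.48, SE 0.36), and Aga, which splits asparagine-linked sugars from peptide, from 33 to 116 and 119 (1.78, SE 0.25). Ppt2, a thioesterase, had 5, 5 and 47 counts and fell by 3.25 (SE 0.45). Hexa, a subunit of beta-hexosaminidase, had 7, 6 and 41 counts and fell by 2.68 (SE 0.46), a call lost with DESeq2.

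Of 26 lysosomal membrane genes, 25 were tested, of which 5 rose and 20 were not called (median log2FC 0.28). The share called was near the 18.1% of all genes. Among the 24 that passed the filter in both groups it was 20.8%, against 14.9% of all such genes. Laptm4b, with 0, 0 and 19 counts, passed through the wild type only and was not called (adjusted p = 0.0505 in the edgeR test). The largest rise was of Mcoln2, a cation channel, with 238, 227 and 46 counts (log2FC 2.28, SE 0.21). Abca2 followed at 1.96 (SE 0.20), then Npc1, a cholesterol exporter, at 1.39 (SE 0.26) and Slc36a1, an amino acid transporter, at 1.29 (SE 0.26), a call lost with DESeq2, limma-voom and library size alone. Lamp1, the most used marker of lysosomes, had 1818, 2068 and 1789 counts and was not called (0.07, SE 0.12). Of 16 tested proton pump genes, only Atp6v0a1 was called (6.25%, against 18.1% of all genes), at 1.09 (SE 0.17), a call lost with DESeq2. The other 15 pump genes had log2FCs from -0.52 to 0.22.

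Of 15 tested regulators of lysosomal genes, 1 rose, 2 fell and 12 were not called (median log2FC -0.13). The share called was near the 18.1% of all genes. Among the 14 that passed the filter in both groups it was 14.3%, against 14.9% of all such genes. Tfeb, the E-box factor named above, had 80 and 76 counts against 617 in the wild type and fell 8.18-fold (log2FC -3.03, SE 0.15, adjusted p = 0.00337). Its relative Tfe3, at 342, 358 and 231 counts, missed the threshold (log2FC 0.55, SE 0.14, adjusted p = 0.0741). Fnip2, a folliculin partner in nutrient sensing at the lysosome, which passed the filter through Pax5-/- only, rose from 4 counts to 124 and 185 (log2FC 5.17, SE 0.50). Rragd, a Rag GTPase of the same pathway, fell by 1.80 log2 units (SE 0.34), a call lost with library size alone. Beside the lower Tfeb, Ctsd, the cathepsin gene with E-boxes in its window before the gene, was called higher, and the part of Tfeb in its level was not tested.

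**Figure D4:**
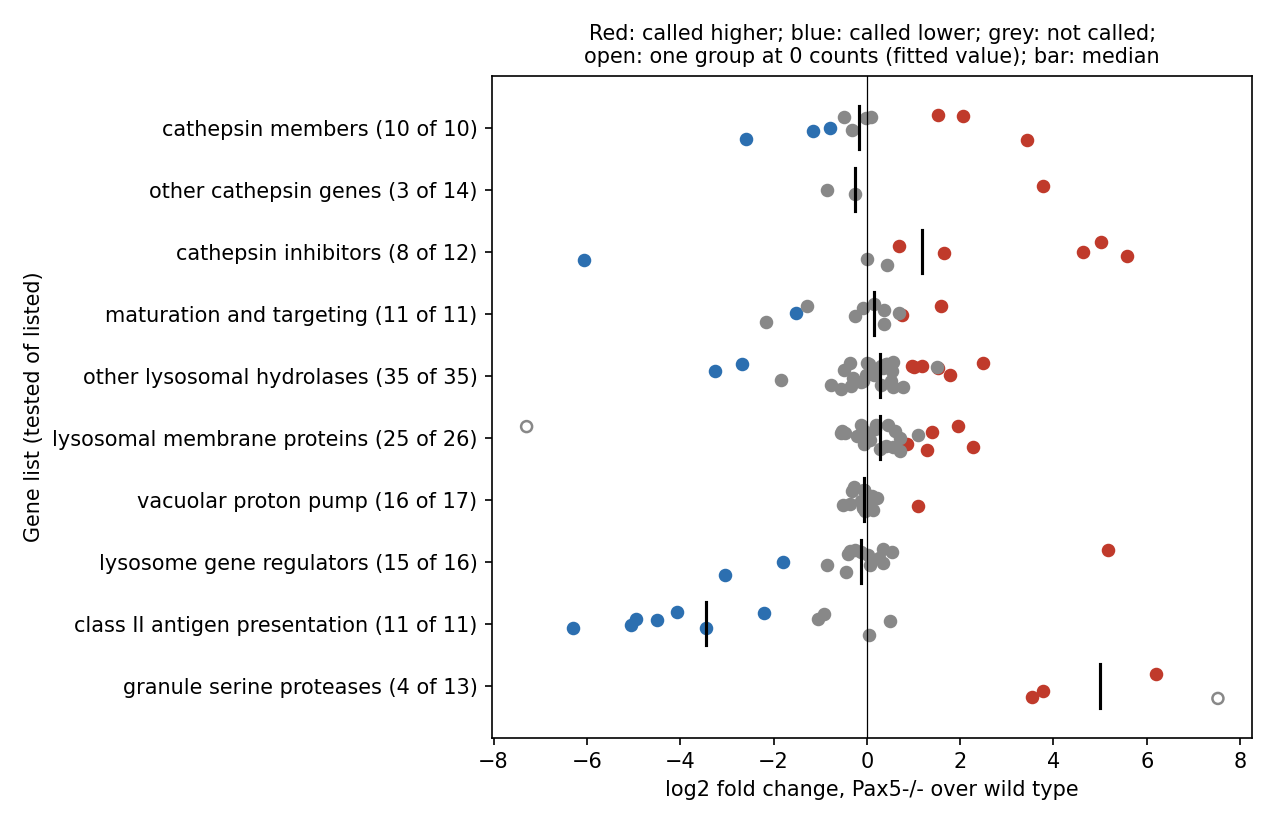
Log2FC, Pax5-/- over wild type, of each tested gene in the cathepsin group and in 9 lists around it, with the number tested of those listed; red and blue points were called higher and lower, grey points were not called, open points had a group at 0 counts, and black bars are medians over tested genes. Inhibitors and granule proteases reach far to the right, class II genes lie to the left at a median of -3.44, and proton pump genes cluster at 0.

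Most genes of the antigen presentation route that cathepsin S serves fell. Of 11 tested, 7 fell and 4 were not called, where 8.55% of all genes were called lower. Of the 7, H2-Aa, H2-Ab1, H2-Eb1 and Ciita passed the filter through the wild type only and had to differ. Cd74, Ifi30 and H2-Ob passed in both groups and fell. Cd74, the invariant chain itself, had 212 and 251 counts against 2421 in the wild type (log2FC -3.44, SE 0.15). Ifi30, encoding the lysosomal thiol reductase GILT that opens disulfide bonds ahead of cathepsin cleavage, had 28, 37 and 1044 counts and fell by 5.05 (SE 0.19, adjusted p = 0.00272). H2-Ab1 (-6.29), H2-Aa (-4.95) and H2-Eb1 (-4.49), the class II chains, fell with it, and H2-Aa stood at -6.39 without Pax5-/- sample 1 and -4.22 without sample 2. Ctss in Pax5-/- sample 1 was at the wild-type level while Cd74 in that sample was at 32.7 CPM against 378 CPM. No depletion of IgM+ cells is stated for the wild type, and that step and genotype cannot be told apart here.

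Most of the granule serine proteases that cathepsin C activates had few or no counts. Of 13, 9 did not pass the filter, 6 of these at 0 and the others at no more than 5 counts in every library. Beside Ctsg, Prtn3, encoding proteinase 3, rose from 10 counts to 126 and 116 (log2FC 3.53, SE 0.33), and Mcpt8, a basophil protease, had 80, 91 and 1 counts, a ratio of 82.5 (95% counting interval 14.6 to 3278). Gzma, granzyme A, had 34, 12 and 0 counts and was not called (adjusted p = 0.0828), though it was with DESeq2, in the likelihood ratio test and with the assumed coefficient. Elane, neutrophil elastase, had 0, 0 and 2 counts. Of the 4 tested, Gzma, Ctsg and Mcpt8 passed through Pax5-/- only and had to differ, so they are no measure of the list.

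Levels of markers of other cells that make cathepsins are given as sums over each list. The 12 macrophage and monocyte markers summed to 41.7 and 53.8 CPM without Pax5 and 22.6 CPM with it. C1qa, C1qb, C1qc and Fcgr1 were at 0 in every library and Adgre1, which encodes F4/80, had 1, 0 and 0 counts, while Lyz2 rose (log2FC 1.91, SE 0.33), as did Mrc1 (71, 80 and 1 counts). Csf1r went the other way, with 8, 4 and 22 counts, and was not called (log2FC -1.90, SE 0.63). Of the 5 tested in this list, 2 were called higher, 0 lower and 3 were not called. The 13 NK and T markers, which share a cell type with Ctsw, summed to 39.0 and 43.8 against 6.24 CPM. Nkg7 and Klrd1 rose among them, while Tbx21 was at 0 in all libraries and Cd3e, Cd3d, Cd3g, Cd8a, Ncr1 and Eomes had at most 2 counts. Prf1 went the other way with 1, 0 and 8 counts and Cd4 had 3, 2 and 7, and neither was tested. Of the 4 NK and T markers tested, 2 were called higher and 0 lower. All 4 passed the filter through Pax5-/- only, so none could be called lower. Of all genes that passed in that way, 38.3% were called. The 12 neutrophil markers summed to 35.8 and 38.2 against 79.5 CPM, with 2 of them, Prtn3 and Ctsg, called higher and 4 called lower. S100a8, S100a9 and Ngp were among the 4, at 0 in Pax5-/- and 30, 232 and 115 counts in the wild type. The 7 mast cell and basophil markers summed to 20.2 and 23.6 against 0.156 CPM, with Mcpt8 and Cpa3, a mast cell carboxypeptidase (51, 70 and 0 counts), called higher and the other 5, Fcer1a and Ms4a2 among them, at 0 in every library. The 11 stromal markers summed to 10.5 and 11.6 against 32.1 CPM, with Dcn and Lum at 0 throughout. The 11 dendritic markers, Irf7 and Bst2 among them, summed to 1365 and 347 CPM against 314 CPM. Irf7 and Bst2 were most of the wild-type sum, while 3 others rose in both Pax5-/- samples, Flt3 (1049, 1034 and 3 counts), Siglech (115, 182 and 18) and Ccr9 (200, 176 and 21). The call of Siglech was lost with limma-voom. Mrc1, Ctsg, Mcpt8, Cpa3 and Flt3 also passed the filter through Pax5-/- only. The 4 neutrophil markers called lower passed through the wild type only, where 49.6% of all such genes were called. These markers had to differ in the direction given. The part of other cell types in the cathepsin levels was not tested.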

How the data were processed

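RNA sequencing of total RNA was analysed from pro-B cells, 2 samples labelled Pax5-/- and 1 labelled wild type. The deposited values are whole-number gene counts made with featureCounts against mm10, per the submitters' processing notes, and they were not normalized. Neither the aligner, nor the annotation, nor whether strand was used is stated in the labels or headers, so reads of overlapping genes on opposite strands cannot be told apart. Per the file headers, a row has the gene's Entrez number, its length and its count; that length was used for levels per kilobase. Symbols and coordinates came from the RefSeq table for GRCm38.p6 (mm10), in which 25275 of 27179 gene numbers were found.

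Counts were fitted in R 4.3.3 with edgeR 4.0.16: genes kept by filterByExpr (minimum count 10), TMM scaling, glmQLFit and glmQLFTest of Pax5-/- against wild type, Benjamini-Hochberg adjustment over all genes tested and a threshold of 0.05. With 3 samples there was 1 residual degree of freedom per gene, and it came from the Pax5-/- samples. Each gene's spread was drawn by glmQLFit toward a value fitted over all genes, with 3.15 prior degrees of freedom. The same spread was taken for the lone wild type. A fold change divides Pax5-/- by wild type, and its SE is the size of the log2 fold change over the square root of the test's F. Counting intervals are exact 95% Poisson intervals for a level and exact Clopper-Pearson intervals for a ratio; they cover the error of counting alone, as reads were not tied to single molecules. On simulated data with known changes the test recovered the simulated directions and made more false calls than its threshold sets.

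Alternatives were RLE scaling, library size alone, 2 other filters, DESeq2 1.42.0, limma-voom (limma 3.58.1), the likelihood ratio test, robust dispersion estimation, an assumed biological coefficient of variation of 0.4, and leaving out each Pax5-/- sample. The members and gene lists were chosen with earlier results of these data known. Genes named beside the cathepsins were, in each list, up to 4 called members, those of largest log2 fold change in either direction among genes averaging 1 CPM or more, and every tested gene of the other cathepsin genes; markers, overlapping genes and further list members were named after their values were seen, as were the promoter motifs chosen.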

Additional observations from a re-analysis of the deposited data

How the results depend on the processing

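Across 9 other fits, the higher cathepsin calls stayed at 3, except with an assumed biological coefficient of variation of 0.4. The lower calls went from 3 to 2 with library size alone, DESeq2 and the likelihood ratio test. The assumed coefficient left 1 higher (Ctsw) and 1 lower (Ctsh). That assumption also lowered the calls over all genes to 623 higher and 583 lower, and those of maturation and targeting to 1, hydrolases to 3, membrane genes to 1 and the proton pump to 0. The pump count was also 0 with DESeq2 (unadjusted p under 0.05 in 1 gene, and in 0 with the assumed coefficient). Of the 6 cathepsin calls, 1, that of Ctsw, held in all 9 fits, as did 14 of 26 called genes named around them. The assumed coefficient ended the calls of Lgmn, Gga2, Gnptab, Aga, Mcoln2, Abca2, Npc1, Slc36a1, Atp6v0a1 and Rragd. Of 13 called genes named after their values were seen, 9 kept the call in all 9 fits; Cst3 and Lyz2 lost it with the assumed coefficient, and Lyz2, Nkg7 and Siglech with limma-voom. No called direction reversed among the genes so rerun, in any fit or with a sample left out. Leaving out a Pax5-/- sample leaves 1 sample a group and no test; the cathepsin median then ran from -0.33 without sample 1 to 0.05 without sample 2, and that of Ctss from -1.27 to 0.02. No paired analysis was possible because the wild type is 1 sample and shares only 1 replicate number with Pax5-/-. Counts under about 50, as for Ctsh, Ctsw and wild-type Ctsl, limit precision.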

Other observations

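Ctss can be set beside all genes that differed between the Pax5-/- samples. Of 4736 tested genes averaging 50 CPM or more, 116 (2.45%) differed by 2-fold or more between these samples. A ratio of sample 1 to sample 2 at least as large as that of Ctss was found for 85 of them, and 2 differed as much in the opposite direction. These are values from 1 library each, and no test of them was made.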
